A study of Mus musculus with 2 samples.

Results

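Long noncoding RNA (lncRNA) promoters were taken as the start sites of lncRNA genes that stand apart from protein-coding promoters. The members were the GENCODE vM21 genes of mouse chromosomes 1 to 19 (genome build GRCm38) annotated as lincRNA, antisense, sense_intronic or bidirectional_promoter_lncRNA, with no transcription start site (TSS) of a protein-coding gene within 5 kb of any of their own. This left 6031 of 51229 annotated genes, namely 4497 lincRNAs, 1311 antisense genes, 222 sense_intronic genes and 1 bidirectional gene. A gene was counted as marked in a replicate when an open chromatin peak overlapped the 500 bp on either side of any of its TSSs.

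lncRNAs are transcripts longer than small RNAs that are not translated into a conserved protein. Many are spliced and polyadenylated like mRNAs, some act as scaffolds or as silencers of neighbouring genes, and others are the primary transcripts from which microRNAs or small nucleolar RNAs are processed. A transcribed gene usually has a nucleosome-poor start site, which the assay for transposase-accessible chromatin with sequencing (ATAC-seq) detects because the Tn5 transposase inserts its adapters into exposed DNA.

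Both samples were LβT2 cells, an immortalized mouse line that serves as a model of the pituitary gonadotrope, the cell that makes luteinizing and follicle-stimulating hormone. The cells, at passage 21, received 2 nM gonadotropin-releasing hormone (GnRH) in pulses every 2 h over 6 h and 45 min, which gave 4 pulses, and were harvested 45 min after the last one, with 4500 cells per assay. The design has 1 group of 2 replicates and no untreated sample, so no effect of GnRH is measured here, and with 2 replicates an exact sign-flip test cannot go below p = 0.5. All values are therefore descriptions, given per replicate or as mean ± SD with n = 2. Peaks overlapped 3 of 9 gonadotrope marker promoters in replicate 1 and 5 of 9 in replicate 2, where all coding promoters were at 32.0% and 44.4%. Lhb, Cga and Gnrhr were marked in both replicates, Foxl2 and Nr5a1 in replicate 2 only, and Fshb, Gata2, Lhx3 and Pitx1 in neither. Of 7 genes of other pituitary lineages, 0 were marked. On chromosomes 1 to 19 the peak lists held 52934 peaks in replicate 1 and 59073 in replicate 2. The lowest pileup at a summit was 10 tags in replicate 1 and 11 in replicate 2, so a weaker opening could not be listed at this depth. The 50 bp at the summit occurred at more than 1 place in the genome for 64.9% and 58.9% of the peaks, which are called multi-copy below.

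The DNA under the peak summits of 6 members is shown first, because the results return to these genes. Each is 200 bp of GRCm38 centred on the summit of replicate 2 and written in the direction of the gene. In Gm5165 (chr17:17234630-17234829, plus strand), BC002059 (chr17:16951315-16951514, plus strand) and Gm20939 (chr17:94864777-94864976, plus strand), the capitals mark a run of 12 bases that these lincRNAs share. In Snhg6 (chr1:9944025-9944224, minus strand), Mir17hg (chr14:115042169-115042368, plus strand) and Kcnq1ot1 (chr7:143296603-143296802, minus strand), the capitals mark letters of known promoter motifs on either strand, namely GGGCGG (SP1), CCGGAAG (ETS factors) and CCAAT (NFY).
Gm5165: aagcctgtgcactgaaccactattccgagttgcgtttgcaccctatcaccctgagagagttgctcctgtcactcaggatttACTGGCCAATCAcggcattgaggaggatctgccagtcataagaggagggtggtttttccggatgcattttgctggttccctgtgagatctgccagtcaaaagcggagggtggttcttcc
BC002059: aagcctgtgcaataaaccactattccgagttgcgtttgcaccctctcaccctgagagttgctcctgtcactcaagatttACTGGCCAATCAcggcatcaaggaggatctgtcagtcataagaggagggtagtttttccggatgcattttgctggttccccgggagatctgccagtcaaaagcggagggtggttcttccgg
Gm20939: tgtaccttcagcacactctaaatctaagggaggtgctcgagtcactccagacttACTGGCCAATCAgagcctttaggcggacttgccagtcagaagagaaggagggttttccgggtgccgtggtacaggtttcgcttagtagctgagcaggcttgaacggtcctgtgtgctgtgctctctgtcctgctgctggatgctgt
Snhg6: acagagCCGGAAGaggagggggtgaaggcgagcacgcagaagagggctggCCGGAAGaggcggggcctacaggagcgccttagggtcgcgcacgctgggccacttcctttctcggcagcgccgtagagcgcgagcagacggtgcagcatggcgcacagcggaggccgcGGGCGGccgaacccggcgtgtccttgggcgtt
Mir17hg: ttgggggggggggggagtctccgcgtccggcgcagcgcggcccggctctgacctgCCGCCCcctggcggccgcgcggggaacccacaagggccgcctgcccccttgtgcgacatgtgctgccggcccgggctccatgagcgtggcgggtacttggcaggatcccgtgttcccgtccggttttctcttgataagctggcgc
Kcnq1ot1: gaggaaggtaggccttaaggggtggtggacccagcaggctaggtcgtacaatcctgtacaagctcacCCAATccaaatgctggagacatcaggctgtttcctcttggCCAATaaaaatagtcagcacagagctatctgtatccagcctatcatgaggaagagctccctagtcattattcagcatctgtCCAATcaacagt
The Snhg6 summit held 24 CpG dinucleotides, 2 ETS matches and 1 SP1 match at a GC content of 70.5%. The Mir17hg summit was similar, with 22 CpGs, 1 SP1 match and 73.0% GC. The Kcnq1ot1 summit held 1 CpG and 3 CCAAT letters. The CpG class used below is read at the most 5′ TSS, not at the summit. By that class Snhg6 had a CpG-rich start site and the other printed genes CpG-poor ones. Mir17hg differed between the 2 places, as its start site window had an observed to expected CpG ratio of 0.333 and 42.7% GC.

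Few lncRNA promoters lay in open chromatin. Of the 6031 members, 265 (4.39%) were marked in replicate 1, 328 (5.44%) in replicate 2 and 212 (3.52%) in both. The mean share was 4.92% with an SD of 0.74 (n = 2). Over all 51229 genes, the share was 17.2% in replicate 1, 23.4% in replicate 2 and 16.1% in both. Protein-coding promoters were marked at 32.0% and 44.4%, or 38.2% ± 8.79, which exceeded the lncRNA share by 33.3 ± 8.05 percentage points. The ratio of coding to lncRNA share was 7.27 in replicate 1 and 8.16 in replicate 2. Processed pseudogenes, copies of mRNAs that usually lack a promoter, had a lower share than lncRNAs at 2.34% and 2.48%. With multi-copy summits set aside, the lncRNA share was 3.12% and 4.01%, against 0.527% and 0.784% at processed pseudogenes. Among strong peaks, those whose false discovery rate q gave a −log10 q of at least 10, 69 and 138 members remained, 1.14% and 2.29% against 6.03% and 13.8% of all genes.

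**Figure D1:**
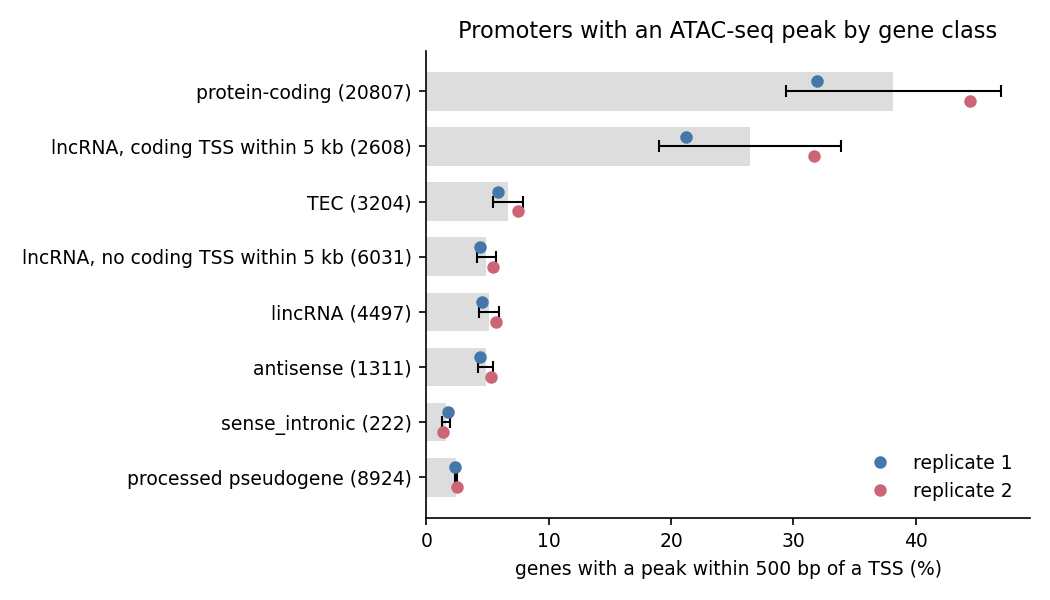
Share of genes (x axis, %) with a peak in the TSS window for each gene class (y axis). Points are replicate 1 (blue) and replicate 2 (red), bars and error bars their mean and SD, and the number of genes stands in brackets. TEC are unclassified transcripts still to be tested. The 6031 lncRNA genes sit at 4.39% and 5.44%, above processed pseudogenes and below the lncRNAs that start near a coding TSS.

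Distance from a coding promoter separated the lncRNAs. The 2608 lncRNA genes of the same types that were left out because they start within 5 kb of a coding TSS were marked at 21.2% and 31.7%. Their share was highest within 500 bp of a coding TSS (35.0% and 51.7% of 1347 genes), where the 2 windows overlap and 1 peak can mark both genes. It was 8.03% and 13.3% at 500 to 2000 bp and 4.66% and 7.15% at 2000 to 5000 bp, the last of which bordered on the values of the members. Among the members the share was 5.26% and 6.03% at 5 to 10 kb (647 genes) and 5.45% and 6.61% at 10 to 50 kb (2331 genes). It was 4.33% and 5.25% at 50 to 200 kb (1961 genes) and 1.74% and 2.93% beyond 200 kb (1092 genes). The lncRNAs farthest from any coding gene were thus the least often marked in both replicates.

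lincRNAs and antisense genes had similar shares. lincRNAs, annotated mostly between genes, were marked at 4.51% and 5.69%, and antisense genes at 4.42% and 5.26%. The intervals of mean ± SD overlapped (5.10% ± 0.83 and 4.84% ± 0.59). Of the 222 sense_intronic genes, a type meant for transcripts in introns of another gene on its strand, 4 were marked in replicate 1 and 3 in replicate 2. The only bidirectional gene far from a coding TSS was not marked. Start sites inside a coding gene on the opposite strand were marked at 3.66% and 3.84% (1094 genes), and those outside coding genes at 4.64% and 6.01% (4677 genes).

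The peaks at lncRNA promoters were centred less tightly on the start site than those at coding genes. The 100 bp just upstream of the TSS held the most summits, 40 in replicate 1 and 63 in replicate 2. The summit lay within 100 bp of the TSS whose window the peak overlapped for 24.2% and 28.7% of marked lncRNAs. For marked coding genes this held for 41.1% and 46.9%. Where a peak overlapped the windows of several TSSs of a gene, the distance was taken to 1 of them, not always the nearest. The median distance between summit and TSS over the genes marked in both replicates was 227 and 236 bp for lncRNAs, against 126 and 112 bp for coding genes. Upstream summits outnumbered downstream ones, at 156 to 109 in replicate 1 and 190 to 137 in replicate 2.

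**Figure D2:**
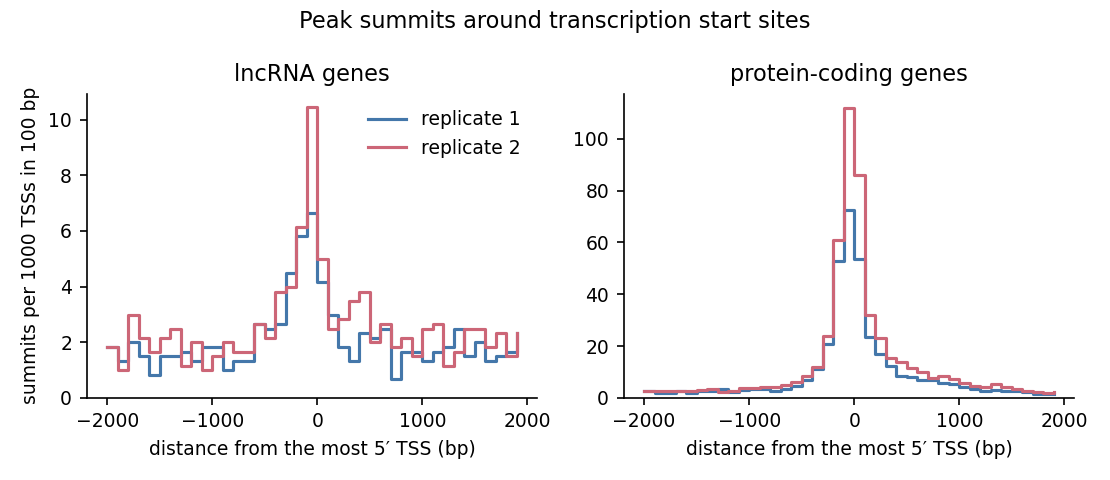
Peak summits per 1000 start sites (y axis) in 100 bp bins of distance from the most 5′ TSS (x axis, bp, negative upstream) for lncRNA (left) and protein-coding genes (right), with a separate y scale for each class and replicates 1 and 2 in blue and red. In both classes the highest bin is the one just upstream of the TSS, with 6.63 and 10.4 summits per 1000 lncRNAs in replicates 1 and 2.

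Windows of the same length 10 kb upstream and downstream gave the local background. The window at the most 5′ TSS was marked in 4.18% and 5.11% of lncRNAs, and the flanking windows in 2.40% and 2.68%, a ratio of 1.74 in replicate 1 and 1.91 in replicate 2. Most of the flanking peaks were multi-copy. With single-copy summits only, the shares were 2.97% and 3.80% at the TSS and 0.769% and 0.981% in the flanks, a ratio of 3.87 ± 0.007. The corresponding ratio at coding genes was 33.6 and 35.9. Start sites of lncRNAs were thus marked more often than their surroundings in both replicates, by a smaller factor than coding ones.

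CpG content divided the lncRNA promoters. Most mammalian promoters of broadly used genes lie in CpG islands, stretches that keep their CpG dinucleotides. A window was called CpG-rich when its observed to expected CpG ratio was at least 0.6 and its GC content at least 50%, which held for 135 members (2.24%) and for 45.7% of coding genes. CpG-rich lncRNAs were marked at 35.6% and 45.2% (48 and 61 genes, 48 in both), and the 5896 CpG-poor ones at 3.68% and 4.53%. Every CpG-rich member marked in replicate 1 was marked in replicate 2. The coding promoters were at 50.3% and 70.4% when CpG-rich and at 16.5% and 22.5% when CpG-poor. The ratio of coding to lncRNA share was therefore smaller among CpG-rich promoters (1.42 and 1.56) than among CpG-poor ones (4.48 and 4.97).

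The share rose along the whole range of CpG ratios. It was 2.54% and 3.23% of 2597 lncRNAs with a ratio under 0.2, and 10.7% and 12.3% of 578 lncRNAs between 0.4 and 0.6. Of the 47 lncRNAs at 0.8 or more, 40.4% and 46.8% were marked. The median CpG ratio was 0.382 over members marked in both replicates, 0.278 over those marked in 1, and 0.216 over those marked in neither. CpG-rich lncRNAs were still few among the marked ones, at 22.6% of those marked in both, against 72.9% of coding genes marked in both.

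**Figure D3:**
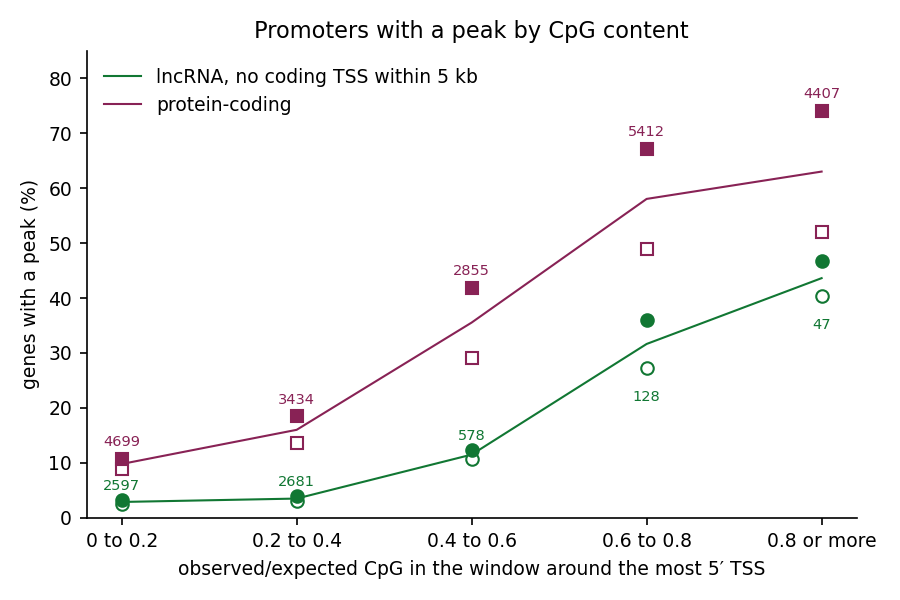
Share of genes with a peak (y axis, %) by observed to expected CpG ratio of the window around the most 5′ TSS (x axis) for lncRNA (circles) and protein-coding genes (squares). Open symbols are replicate 1, filled symbols replicate 2, lines their mean, and the numbers count genes. The lncRNA share rises from 2.54% and 3.23% in the lowest class to 40.4% and 46.8% in the highest, below the coding share in each class.

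Other properties of the annotation went with smaller differences. The 181 members with 4 or more TSSs were marked at 13.8% and 16.6%, those with 2 to 3 at 6.47% and 8.29%, and the 4861 members with 1 TSS at 3.62% and 4.44%. More TSSs also mean more windows in which a peak can fall. Of the 97 members that host an annotated microRNA or small nucleolar RNA, 10 and 13 were marked (10.3% and 13.4%), against 4.30% and 5.31% of the others. Members whose transcripts had the best support level were at 4.92% and 6.03%, and the others at 4.08% and 5.09%. Single-exon and multi-exon members had close shares, at 4.75% and 4.37% in replicate 1 and 5.59% and 5.43% in replicate 2. CpG-poor lncRNAs were marked more often where the nearest coding promoter was marked in both replicates (5.13% and 6.07%) than elsewhere (2.99% and 3.79%). Among CpG-rich lncRNAs this order was not seen, with 34.7% and 42.9% of 49 genes against 36.0% and 46.5% of 86.

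Letters of 13 promoter motifs were counted in 200 bp windows, on both strands, and a match is a description of the sequence only. At the TSSs of members marked in both replicates, 21.7% held GGGCGG and 10.4% held CCGGAAG, against 5.77% and 2.18% of members marked in neither. Over the TSSs of all genes these shares were 21.2% and 5.27%, and over coding TSSs marked in both 56.3% and 16.7%. CCAAT, a short string that is common everywhere, was at 34.0% of marked and 26.0% of unmarked lncRNA TSSs, against 27.8% of all TSSs. CAAGGTCA, the letters bound by the gonadotrope factor SF1, were in 0 of 212 marked TSS windows and 1.24% of unmarked ones, and AGATAA, the letters bound by GATA factors, in 5.66% and 8.96%. Windows at single-copy summits, which need not lie at the TSS, gave another order. CAAGGTCA was in 8 of 180 windows in replicate 1 (4.44%) and 18 of 233 in replicate 2 (7.73%). The share was 0.832% and 0.947% at single-copy coding summits and 3.36% and 4.47% at all single-copy summits. AGATAA was at 6.11% and 15% of the lncRNA summits, 3.01% and 2.56% of the coding ones and 9.26% and 9.59% of all. The motif of CTCF, an architectural protein, was at 3.89% and 3.43% of the lncRNA summits, 0.518% and 0.701% of the coding ones and 1.25% and 1.69% of all. The letters of AP1 (TGANTCA), PITX (TAATCC) and the TATA box (TATAAA) were also at a higher share of lncRNA than of coding summits in both replicates. AP1 was at 7.22% and 9.01% against 3.09% and 2.69%, and at 5.82% and 5.94% of all single-copy summits. For PITX and the TATA box the lncRNA shares lay below those of all single-copy summits. PITX was at 5% and 6.01% against 5.75% and 6.57% of all, and the TATA box at 4.44% and 4.29% against 6.47% and 5.82%. The lncRNA shares rest on few windows, 7 and 8 for CTCF.

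Peaks at lncRNA promoters were by median weaker than those at coding genes, with a larger gap among CpG-poor promoters. The median −log10 q of the highest peak per marked gene was 5.50 in replicate 1 and 7.67 in replicate 2, against 6.97 and 12.5 for coding genes. Among CpG-rich promoters it was 6.97 and 13.4 against 7.74 and 13.4, and among CpG-poor ones 5.50 and 7.67 against 6.97 and 10.8. Coding genes had a median of 3 TSSs against 1, so their highest peak was taken over more windows. The lncRNA peaks had a median width of 364 and 474 bp, against 400 and 519 bp. Their range was wide, as −log10 q spanned 1.30 to 827 in replicate 1 and 1.43 to 1545 in the other. The summits held 10 to 471 and 11 to 803 tags. Peaks of 2 kb or more stood at 6.42% and 6.40% of marked lncRNAs and at 1.61% and 1.59% of marked coding genes. Of the lncRNAs concerned, 12 of 17 in replicate 1 and 14 of 21 in replicate 2 had multi-copy summits. The same held for 91 of 107 and 106 of 147 of the coding genes concerned. Among all peaks of any width, 64.9% and 58.9% were multi-copy.

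The replicates overlapped in most but not all of the marked lncRNAs. The 212 members marked in both were 80.0% of those in replicate 1 and 64.6% of those in replicate 2, and the corresponding shares of coding genes were 96.2% and 69.3%. The −log10 q of the 212 members correlated across genes with a Spearman's rho of 0.780, given without a p since genes are not replicates. It was higher in replicate 2 for 182 of them, with medians of 6.22 and 13.0. The 53 members marked only in replicate 1 and the 116 marked only in replicate 2 had weak peaks, with medians of 2.88 and 4.19. The strongest peaks without a partner were those of Gm27198 in replicate 1 (15.7) and AC132455.2, Gm12065 and Gm32618 in replicate 2 (24.0, 21.0 and 19).

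**Figure D4:**
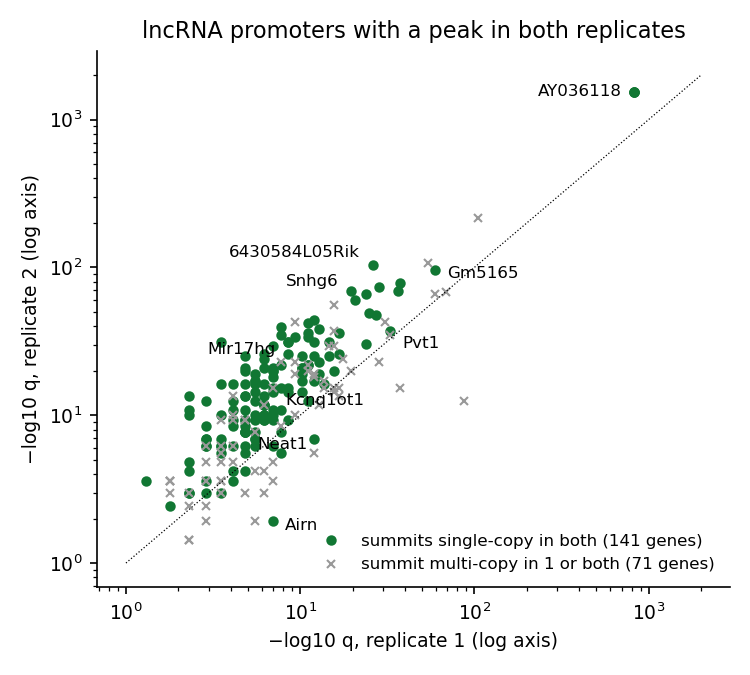
−log10 q of the highest promoter peak in replicate 1 (x axis) and replicate 2 (y axis), both on log scales, for the 212 lncRNAs marked in both. Points are genes with a single-copy summit in both (141), crosses those with a multi-copy summit in at least 1 replicate, and the dotted line marks equal values. Of the 212 genes, 182 lie above the line.

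Repeated sequence took a larger share here than at coding promoters. The summit was multi-copy for 30.2% and 26.5% of marked lncRNAs, 7.22% and 5.51% of marked coding genes and 78.0% and 69.2% of marked processed pseudogenes. Counted over 200 bp in place of 50 bp, the same shares were 12.8% and 11.6%, 3.59% and 2.69%, and 35.9% and 38.5%, in the same order of classes. Of the 212 lncRNAs marked in both replicates, 141 had a single-copy summit in both. By mean rank over both replicates, the leading members with multi-copy summits in both were Gm43263 on chromosome 8 (68.9 and 68.4, with 65 and 180 copies of the summit) and 1700110I01Rik on chromosome 14 (59.3 and 65.8, 83 and 81 copies). Others differed widely between the replicates, such as Gm26804 (87.3 and 12.5, 4 copies in each), Gm42916 (37.6 and 15.2, 5 copies in each) and Gm37350 (15.7 and 55.4, 40 and 15 copies), which were named after their values were seen. A peak at 1 of these summits cannot be assigned to 1 place from these files. The antisense gene Gm21847 on chromosome 5 (105 and 216) lay under a peak of several kb whose summit was single-copy in replicate 1 and had 7 copies in replicate 2.

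The highest values belonged to ribosomal sequence. The lincRNA genes Gm26917, Gm42418 and AY036118 share 1 peak at chr17:39842992-39848833, 5842 bp long and with the same ends in both replicates. Its −log10 q was 827 in replicate 1 and 1545 in replicate 2, from 471 and 803 tags, a fold enrichment of 146.9 ± 42.9 (SD, n = 2). Its summits fell inside Rn18s-rs5, which RefSeq annotates as a pseudogene related to 18S ribosomal RNA. The 50 bp at the summit occur once in the assembly, but ribosomal DNA repeats that the assembly lacks could not be counted. Sharing was otherwise rare. Only 5 peaks in replicate 1 and 8 in replicate 2 covered more than 1 member. For 26 of 265 and 31 of 328 marked members the peak also lay at the TSS of another gene.

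Several lincRNAs of chromosome 17 were among the single-copy members of highest rank. For Gm5165, −log10 q was 59.3 and 96.2 in replicates 1 and 2, with summits 125 and 142 bp upstream of its start. Gm20939 stood at 37.6 and 77.9, and BC002059 at 36.4 and 69.8. The summit DNA of these 3 genes is alike. Over the 200 bp printed above, Gm5165 and BC002059 matched at 188 positions (94.0%), and Gm20939 shared stretches of 109 and 110 bases with them at 76.1% and 74.5% identity. Gm6712 (54.0 and 107.8, where the replicate 2 summit occurs at 2 places) and Gm26734 (25 and 49.1), both on chromosome 17, held the same 12-base run, ACTGGCCAATCA, in their summit windows. The run includes CCAAT.

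The 12-base run was chosen after these values were seen, so its counts are a description. It occurs at 528 places on chromosomes 1 to 19 and lies in the TSS window of 21 members, all lincRNAs, of which 11 were marked in replicate 1 and 10 in replicate 2. Of the 16 members that had not led to it, 6 and 5 were marked (37.5% and 31.2%), on a background of 4.39% and 5.44% of all members. Those marked included Gm31793 (9.36 and 19), Gm32856 (7.74 and 23.0), Gm47469 (10.2 and 21.0), Gm46430 (5.50 and 14.3) and Gm39469 (3.49 and 10.0). The run lay at the summit for 4 of the 6 in replicate 1 and 3 of the 5 in replicate 2. Most of the unmarked holders, such as Gm7762, Gm48222 and Gm17514, lay in a cluster on chromosome 13. Of 23 protein-coding genes with the run in their TSS window, 15 and 16 were marked (65.2% and 69.6%), where all coding genes were at 32.0% and 44.4%. This count does not place the run under the coding peaks. The 5 leading genes are related in sequence, and the other holders of the run were not aligned. The genes counted here can therefore not be taken as independent observations.

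The other strong single-copy members had little in common with that family. 6430584L05Rik, a lincRNA on chromosome 6 whose nearest coding gene is Ghrhr at 20.5 kb, had 26.1 in replicate 1 and 103 in replicate 2, with a fold enrichment of 16.2 ± 8.92. The promoter of Ghrhr itself, a marker of another pituitary lineage, was not marked. Gm26901 on chromosome 1 (28.3 and 73.8) had a CpG-rich start site. Gm45054 on chromosome 7 (23.9 and 65.8) was CpG-poor, with its summit 429 and 365 bp inside the gene. Snhg6, which hosts the small nucleolar RNA Snord87, reached 19.7 and 69.8 from 33 and 77 tags. Its CpG-rich, ETS-bearing summit is printed above.

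The lncRNAs that are well known from other tissues were a small part of the members. Of 124 symbols collected by role, 94 were in the annotation and 37 were members, since genes such as Gas5 or Rian either start near a coding TSS or have another annotated type. Peaks marked 11 of the 37 in replicate 1 (29.7%) and 15 in replicate 2 (40.5%), 11 in both. The background was 17.2%, 23.4% and 16.1% of all genes and 4.39%, 5.44% and 3.52% of all members. Several listed genes have many TSSs, such as Lncpint with 14 and Pvt1 with 10, and so more windows. Strong peaks remained at 4 and 6. All these counts include Gm26917 of the ribosomal peak. The separate lists below have the same background. They hold 5 to 11 members each, too few to set 1 list apart, and some genes are on several lists.

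Of 8 members of a list of abundant lncRNAs, most of them nuclear, 4 were marked in replicate 1 and 6 in replicate 2. Neat1, the scaffold of paraspeckles, stood at 4.80 in replicate 1 and 7.67 in replicate 2, with summits 259 and 253 bp upstream of a start site. Malat1, an abundant RNA of nuclear speckles, had a peak only in replicate 2 (4.84), 589 bp upstream and so at the edge of its window. 2900097C17Rik, also called Norad and mainly cytoplasmic, had 3.49 and 5.51 at a summit with 2 and 3 copies in the genome. Lncpint, a p53 target, was marked only in replicate 2 (5.51), at an internal start site. Meg3 and Miat had no peak in either replicate. Kcnq1ot1 and Pvt1, described below with other lists, were also on this list. Both were marked in both replicates, Kcnq1ot1 at 6.97 and 14.3 and Pvt1 at 32.9 and 37.2. Abundance of the RNA was not measured here, so these values cannot be set against it.

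Of 7 imprinted members, 3 were marked in both replicates, each by a modest peak. Kcnq1ot1, which silences neighbouring imprinted genes on the paternal chromosome, had 6.97 and 14.3, with summits 155 and 154 bp upstream. Peg13, which lies in an intron of a coding gene, had 4.80 and 8.44. Its summit lay 891 bp inside the gene in replicate 1 and 21 bp upstream in replicate 2, so the replicates did not share a summit. Airn, the paternal silencer of Igf2r, had 6.97 and 1.91 and was thus lower in replicate 2. H19, Meg3, B830012L14Rik and Mirg were not marked, of which the last 2 belong with Meg3 to the imprinted cluster on chromosome 12.

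Small RNA hosts were marked at 2 of 10 in replicate 1 and 4 of 10 in replicate 2. Mir17hg, the primary transcript of the miR-17 to miR-92 cluster of proliferation-linked microRNAs, stood beside Snhg6 as the second host marked in both, at 8.54 and 26.1. Its summits lay 619 and 610 bp upstream, so the peak reached the window from outside. Mir670hg (7.67) and Snhg20 (4.84) were marked in replicate 2 only. Hosts of microRNAs of neurons or immune cells, Mir124a-1hg, Mir124-2hg, Mir9-3hg and Mir155hg, had no peak, although 3 of them and Snhg12 have CpG-rich start sites.

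Of 5 growth and stress members, 2 were marked in replicate 1 and 3 in replicate 2, among them Gm26917 of the ribosomal peak. Pvt1, which lies downstream of the growth regulator Myc, had 32.9 and 37.2 at 1 of its 10 start sites, 376 and 488 bp into the transcript. Of the 11 developmental members, 1700020I14Rik (12.0 and 25.1) and 2610035D17Rik (2.88 and 6.93) were marked, 18.2% in each replicate. Both peaks were at CpG-rich start sites with summits close to the TSS. Hotair and Halr1 of the Hox clusters and the neural lncRNAs Rmst and Paupar were not marked. Trp53cor1, a p53 target, and Lockd, which lies beside Cdkn1b, were not marked either.

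**Figure D5:**
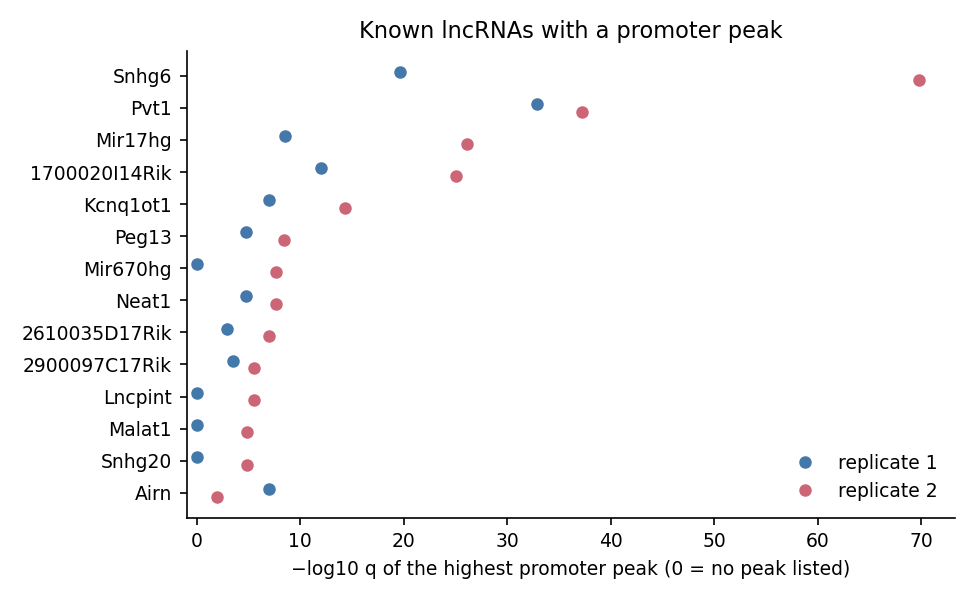
−log10 q of the highest promoter peak (x axis) in replicate 1 (blue) and replicate 2 (red) for the known lncRNAs with a peak (y axis), where 0 means that no peak is listed. Gm26917, at 827 and 1545, is not drawn. Snhg6 and Pvt1 lie farthest right, and Malat1, Lncpint, Mir670hg and Snhg20 are at 0 in replicate 1.

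The next list held lncRNAs whose RNA responded to GnRH in other LβT2 samples. Those samples received GnRH as 1 short exposure, not in pulses over hours, and at a higher dose in the bulk samples. The names came from 2 lists of GnRH-regulated genes, 1 from bulk and 1 from single-cell RNA sequencing, which together held 15 members. Peaks marked 1 of the 15 in replicate 1 and 3 in replicate 2, none of them strong. These shares, 6.67% and 20%, stood beside 17.2% and 23.4% of all genes and 4.39% and 5.44% of all members. 2810405F17Rik, with a CpG-rich start site, had 2.88 and 6.93. Gm3294, the host of Mir129-1, had 6.93 in replicate 2 only, and Lncpint is described above. The other 12, such as Gm28321, Gm7967, Gm4876 and Gm26825, had no peak. Of 118 coding genes on the same lists, 63 (53.4%) and 87 (73.7%) were marked, where all coding genes were at 32.0% and 44.4%.

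Few members lay near the genes that define the gonadotrope response. Within 100 kb of a start site of Lhb, Cga, Gnrhr, Fshb, Nr5a1, Pitx1, Lhx3, Egr1, Fos or Jun there were 10 members, and 1 of them was marked. In replicates 1 and 2, 4.39% and 5.44% of all members and 17.2% and 23.4% of all genes were marked. A count of 1 in 10 is too small to set these members apart. Tmem250-ps, 62.3 kb from Lhx3, a pituitary homeodomain factor, had 4.80 in replicate 1 and 13.4 in replicate 2. Gm12364 at 68.4 kb from Cga, the gene of the common gonadotropin alpha subunit, had no peak. The same held for Gm40477 and Gm32296 near the early gene Fos, at 37.6 and 54.7 kb, and for Gm47071 at 5.18 kb from Pitx1, although its start site is CpG-rich.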

How the data were processed

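ATAC-seq peaks of 2 replicates of GnRH-treated LβT2 cells were used. The labels do not say whether the replicates are separate cultures. The authors mapped reads with bowtie2 to GRCm38, removed duplicate reads and called peaks per replicate with MACS2, extending tags to 200 bp, with a genome size given as "-g dm", the setting for the fly. Whether this was the value used or a slip for mouse could not be settled here, and every p and q depends on it. Versions are not given in the sources used here. No input is named. The deposited peak files hold the summit, the score, the fold enrichment (a ratio), −log10 p and −log10 q. The deposited score equals −log10 q multiplied by 10 and cut to a whole number. Tag pileups at the summit were recomputed from these values.

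Gene models were GENCODE vM21, compared with GRCm38 sequence, and the coding gap was read against every transcript of protein-coding genes. The CpG class was read at the most 5′ TSS, not at the best-marked one as first designed, since the latter uses the peaks. Copies of the 50 bp around each summit were counted in GRCm38 on both strands. numba 0.67.0, Biopython 1.88, pandas 2.3.3, numpy 2.4.6, scipy 1.17.1 and matplotlib 3.10.9 were run in Python 3.11.15, and 7 of 7 checks on simulated data passed. Members, lists and rules were chosen with earlier results of these data known. Genes named were those of the known-lncRNA and GnRH lists, the 10 single-copy members of highest rank, the 2 highest of each type, the 3 highest in 1 replicate only, the 3 highest multi-copy members and members within 100 kb of gonadotrope genes. The alternatives were other windows, thresholds, gaps, flanks, copy lengths and CpG classes, and leaving out a replicate or a chromosome. The 12-base run, the class at the highest peak and the omission of chromosome 17 were added after seeing the data.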

Additional observations from a re-analysis of the deposited data

How the results depend on the processing

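Of the alternatives compared, none turned a direction, and the values that moved by more than the SD between replicates, or for the gene lists by over 1.5 times, follow. Leaving out 1 of 2 replicates cannot move a mean by more than that SD, so it says nothing about stability. With 250 bp on either side of the TSS, the mean share of marked lncRNA promoters was 4.02%, with lincRNAs at 4.21%, antisense genes at 3.93% and sense_intronic genes at 0.676%. With 1000 bp these were 6.25%, 6.37%, 6.29% and 3.60%. At a −log10 q of at least 10 they were 1.72%, 1.87%, 1.49% and 0, the difference between coding and lncRNA promoters was 17.7 percentage points, that between CpG-rich and CpG-poor lncRNAs 18.7, and the ratio of TSS to flanks 3.11. The marked members of the known and the GnRH-regulated lists then numbered 6 and 0, against 15 and 3. Requiring the summit in the window gave 4.11% of all members, 4.00% of antisense and 1.13% of sense_intronic genes. Single-copy summits alone gave 3.56% of members, 3.70% of lincRNAs, 3.55% of antisense and 0.901% of sense_intronic genes, and a TSS to flank ratio of 3.87. By fold enrichment the median coding peak exceeded the median lncRNA peak by a factor of 1.19, against 1.45 by −log10 q. Counting copies of 200 bp, 12.2% of marked lncRNAs were multi-copy, against 28.4% with 50 bp. Leaving out chromosome 14 or 17 gave shares of 4.47% and 4.60%, within the spread of the main value. No paired analysis was possible because the design has a single group. Depth limits the list to summits of at least 10 and 11 tags.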

Other observations

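The marked lncRNAs were spread unevenly over the chromosomes. Chromosome 14 had 37 and 44 marked lncRNAs of 306 (12.1% and 14.4%), of which 48.6% and 36.4% had a multi-copy summit. Chromosome 17 had 26 and 36 of 257 (10.1% and 14%), of which 7.69% and 5.56% were multi-copy. Among the lowest shares were those of chromosomes 3 (2.02% and 2.02% of 347) and 10 (1.63% and 2.80% of 429). Coding promoters were marked at 57.0% and 63.1% on chromosome 14, 41.7% and 50.3% on chromosome 17, 18.2% and 33.0% on chromosome 3 and 18.1% and 33.6% on chromosome 10. Other chromosomes did not keep the order, with coding promoters of chromosome 1 at 43.6% and 51.7%, above chromosome 17, where its lncRNAs were at 4.81% and 7.09%.

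Unclassified transcripts still to be experimentally tested (TEC), a class outside the lncRNA types above, were marked at 5.84% and 7.52% of 3204 genes. The bidirectional lncRNAs that start near a coding gene, 189 in number, were marked at 38.1% and 66.1%, while the single one far from coding genes had no peak.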
